A study of Homo sapiens with 8 samples.

Results

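FAIRE sequencing was compared between HCT8 cells exposed to *V. cholerae* MVs and mock-treated HCT8 cells, which gave 2 of the 8 samples of the series. The members were all peaks of these 2 lists, 79591 peaks with *V. cholerae* MVs and 66436 peaks in mock, and peaks that shared at least 1 bp were joined into 126177 regions on chromosomes 1 to 22 and X. HCT8 is a human ileocecal colorectal adenocarcinoma line grown in culture. The treated cells received membrane vesicles (MVs) of the El Tor strain C6706 for 5 h, and the mock cells received buffer. A FAIRE library of HCT8 cells given MVs of *E. coli* strain MC1061 for 5 h is quoted at a few study genes. Each side was 1 library, so there is no replicate check, and the treatments were compared without a test or a p-value. The signal of a peak is its normalized tag count (NTC), the tags of the peak scaled to a library of 10000000 tags.

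FAIRE isolates DNA that is poorly crosslinked to protein, mostly DNA free of nucleosomes. In phenol-chloroform extraction of fixed and sonicated chromatin such DNA stays in the aqueous phase, and its sequence tags pile up over active promoters and enhancers. Bacterial MVs carry lipopolysaccharide, proteins and nucleic acids, and epithelial cells sense such products through Toll-like and NOD receptors that signal to NF-kB and AP-1. AP-1 is a dimer of FOS, JUN and ATF family proteins and binds many enhancers of epithelial cells, whereas GC boxes, bound by SP and KLF proteins, are typical of promoters.

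The central sequences of 4 regions are shown because they carry motifs whose shares differed between the lists, GC boxes and a CRE motif at promoters and AP-1 motifs away from them. Each is the 300 bp window at the centre of the region on the forward strand of GRCh37, the build of the lists (hg19). Within the class and distance named beside each, they are the regions with the most tags among those with the GC box, CRE or AP-1 motif and without an annotated UTR in the window. Capitals in the first pair mark GC boxes (GGGCGG) and the CRE (TGACGTCA), ETS (CCGGAAG) and NRF1 (GCGCATGCG) motifs, and capitals in the others mark AP-1 motifs (TGANTCA), each on either strand.
HNRNPL promoter, *V. cholerae* MVs only, window chr19:39340159-39340458: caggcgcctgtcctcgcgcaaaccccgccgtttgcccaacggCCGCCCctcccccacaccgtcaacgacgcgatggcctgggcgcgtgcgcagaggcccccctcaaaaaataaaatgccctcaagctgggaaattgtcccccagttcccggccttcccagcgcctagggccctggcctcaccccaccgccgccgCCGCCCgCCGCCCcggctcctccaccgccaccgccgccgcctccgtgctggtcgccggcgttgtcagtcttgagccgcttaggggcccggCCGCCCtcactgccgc
KDM6B promoter, shared, window chr17:7738688-7738987: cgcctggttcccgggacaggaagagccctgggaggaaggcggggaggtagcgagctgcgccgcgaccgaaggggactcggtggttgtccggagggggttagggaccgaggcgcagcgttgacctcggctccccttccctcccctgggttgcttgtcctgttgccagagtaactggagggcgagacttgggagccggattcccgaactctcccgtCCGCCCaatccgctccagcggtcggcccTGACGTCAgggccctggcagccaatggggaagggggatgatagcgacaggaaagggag
RPS9 intron, *V. cholerae* MVs only, window chr19:54713619-54713918: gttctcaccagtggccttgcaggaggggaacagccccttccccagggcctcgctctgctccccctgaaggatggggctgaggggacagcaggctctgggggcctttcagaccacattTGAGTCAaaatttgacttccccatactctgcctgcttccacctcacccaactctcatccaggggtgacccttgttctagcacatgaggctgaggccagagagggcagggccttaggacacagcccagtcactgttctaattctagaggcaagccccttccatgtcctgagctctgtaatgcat
SLC6A6 intron, *V. cholerae* MVs only, window chr3:14494644-14494943: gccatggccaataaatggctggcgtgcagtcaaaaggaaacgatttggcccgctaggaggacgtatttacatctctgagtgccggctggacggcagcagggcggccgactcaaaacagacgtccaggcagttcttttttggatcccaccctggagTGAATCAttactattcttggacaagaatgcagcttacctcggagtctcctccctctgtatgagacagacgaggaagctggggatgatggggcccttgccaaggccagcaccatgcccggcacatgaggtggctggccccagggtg

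The HNRNPL region (chr19:39337675-39342942), at the start of the gene of a splicing regulator, held the highest NTC of any nuclear peak, 279.9 with *V. cholerae* MVs, against no listed peak in mock. Its window held 4 GC boxes. The KDM6B region (chr17:7736921-7740753) covers the start of the gene of an H3K27 demethylase. It held an NTC of 167.3 with *V. cholerae* MVs and 9.67 in mock, a log2 ratio of 4.11 with a 95% counting interval of 3.33 to 5.01. The intronic RPS9 and SLC6A6 regions held NTC values of 129.2 and 124.2 with *V. cholerae* MVs and had no mock peak.

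The libraries differed in how many tags lay in peaks, which touches every ratio below. The *V. cholerae* MVs library had 12077180 tags and the mock library 14474665, and 13.9% of the tags with *V. cholerae* MVs and 7.12% of those in mock lay in called peaks. The estimated fragment length was 260 bp with *V. cholerae* MVs and 336 bp in mock. The normalized tag count is scaled to all tags of the library. Scaling to the tags in all peaks instead lowers every log2 ratio by 0.97. The file headers give a threshold of 11 tags with *V. cholerae* MVs and 12 in mock, and the weakest listed peaks held 7 and 9 tags, so no listed peak does not mean no signal and no fold is given there. Promoters of 12 genes of colon epithelium had a FAIRE peak at 12 genes with *V. cholerae* MVs and at 9 in mock. Their summed normalized tag counts were 1190.4 with *V. cholerae* MVs and 155.4 in mock, and *EPCAM*, *CDX2* and *LGALS4* had no mock peak. Only *HNF4A* went the other way, with 13.2 with *V. cholerae* MVs and 31.8 in mock. Its log2 ratio was -1.26 (interval -2.18 to -0.41). For 12 genes of blood cells the sums were 27.3 with *V. cholerae* MVs and 55.3 in mock, with peaks at 3 and 4 genes. For 13 genes that mark liver, neurons, muscle, endothelium or fibroblasts they were 145.1 and 167.2, with peaks at 6 and 7. With *V. cholerae* MVs the epithelial promoters thus held several times more signal than either other list, while in mock they held more than the blood genes but not more than the genes of the other tissues. What part the low share of mock tags in peaks has in the differences below was not tested.

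*V. cholerae* MVs gave more, wider and stronger FAIRE peaks than mock, and most peaks were listed in 1 library only. Of all regions, 19529 were shared, 60001 were listed with *V. cholerae* MVs only and 46647 in mock only. Shared regions took up 24.6% of the *V. cholerae* MVs peaks (exact 95% binomial interval 24.3 to 24.9) and 29.8% of the mock peaks (29.4 to 30.1). Such intervals cover counting error only, and PCR copies of tags are not independent. The called peaks covered 55.7 Mb with *V. cholerae* MVs and 39.2 Mb in mock. The median width was 500 bp in both, the smallest width in use, but 12.8% of the *V. cholerae* MVs peaks and 4.51% of the mock peaks were at least 1 kb wide, and 1406 peaks with *V. cholerae* MVs against 147 in mock were at least 2 kb wide. On the X chromosome 517 peaks were listed with *V. cholerae* MVs and 145 in mock.

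Strong regions of a single library were mostly on the *V. cholerae* MVs side. Regions listed with *V. cholerae* MVs only had a median normalized tag count of 10.8 (middle 50% of regions 9.11 to 15.7), and 7485 of them held 30 tags or more. Regions listed in mock only had a median of 8.98 (8.29 to 10.4), and 699 held 30 tags or more. Rescaled to the mock depth, 9.48% of the regions with *V. cholerae* MVs only would hold fewer tags than the mock threshold. Rescaled to the *V. cholerae* MVs depth, 59.8% of the mock-only regions would hold fewer than the *V. cholerae* MVs threshold.

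Shared regions carried more signal with *V. cholerae* MVs when scaled to all tags, and the difference was largest at start sites. Their median normalized tag count was 14.1 with *V. cholerae* MVs and 10.4 in mock, their median width 651 and 500 bp, and their median density 20.6 and 18.0 NTC per kb of called peak. The median log2 ratio was 0.39 over all shared regions, 0.24 per kb of called peak and -0.58 when scaled to the tags in all peaks. Of all shared regions 28.3% were at least 2-fold higher with *V. cholerae* MVs and 2.63% at least 2-fold lower, and 29.9% had a 95% counting interval wholly above a ratio of 1 and 2.43% one wholly below it.

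Of the distance classes, shared regions at transcription start sites had the highest ratio over mock. In the 5650 shared regions within 1 kb of a protein-coding start site the median normalized tag count was 27.3 with *V. cholerae* MVs and 12.4 in mock, with median widths of 906 and 500 bp. Their median log2 ratio was 1.00 (middle 50% of regions 0.26 to 1.75), 0.39 per kb of called peak and 0.03 when scaled to the tags in all peaks. At least 2-fold higher were 49.7% of these regions and at least 2-fold lower 1.66%, and in 53.6% the interval lay wholly above a ratio of 1 and in 1.68% wholly below. In the 13879 shared regions farther away the median log2 ratio was 0.26, with 19.5% at least 2-fold higher, 3.02% at least 2-fold lower, and the interval wholly above a ratio of 1 in 20.3% and wholly below in 2.74%. A log2 ratio of 0.26 is what equal tag numbers give, because the mock library was deeper. The median was also 0.26 in each of the classes from 1 to 10 kb, 10 to 100 kb and over 100 kb, so distance beyond the first kb made no difference to it. On the scale of tags in peaks, these distal regions had a median log2 ratio of -0.71. With only peaks at 8-fold or more over input, 764 shared regions were left, and the median was 0.26 within 1 kb of start sites and 0.15 farther away.

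The gap at start sites also appeared in the whole lists. Within 1 kb of a start site lay 22.3% of the *V. cholerae* MVs peaks with 36.1% of their tags, and 16.9% of the mock peaks with 19.8% of their tags. Among peaks of 30 tags or more the share was 55.8% with *V. cholerae* MVs (7156 of 12814, interval 55.0 to 56.7) and 40.5% in mock (1000 of 2471, 38.5 to 42.4). The position of the start of the gene itself lay under a peak in 38.2% of 20098 protein-coding genes with *V. cholerae* MVs and in 10.8% in mock, a ratio of 3.54. At 5 kb upstream the shares were 3.83% and 2.54%, a ratio of 1.51, and at 5 kb downstream 4.76% and 2.84%, a ratio of 1.68.

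**Figure D1:**
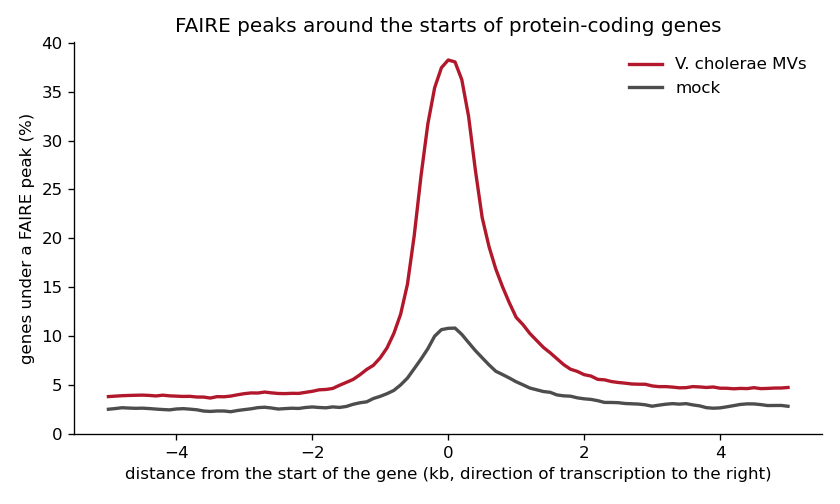
Share of 20098 protein-coding genes (vertical axis, percent) whose position at a given distance from the start of the gene (horizontal axis, kb) lies under a FAIRE peak, for *V. cholerae* MVs in red and mock in grey. The curves stand at 38.2% and 10.8% at the start of the gene and approach each other at 5 kb on both sides.

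The ratio of shared regions grew with their level. In the 25% of shared regions with the lowest mean of both libraries the median log2 ratio was 0.14, in the next 25% steps 0.17 and 0.64, and in the 25% with the highest mean 1.58. Since the mean holds the same tags as the ratio, this order is a description. In the highest 25% the median was 1.70 in the 2870 regions within 1 kb of a start site and 1.40 in the 2012 regions farther away. In the lowest 25% it was 0.14 in both distance classes. GC content moved with the ratio as well. Within 1 kb of a start site the median log2 ratio was 0.26 in the shared regions in the lowest 25% by GC content and 1.29 in the highest 25%, whereas over 1 kb it was 0.26 and 0.38. The part of GC content in the ratios was not tested.

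**Figure D2:**
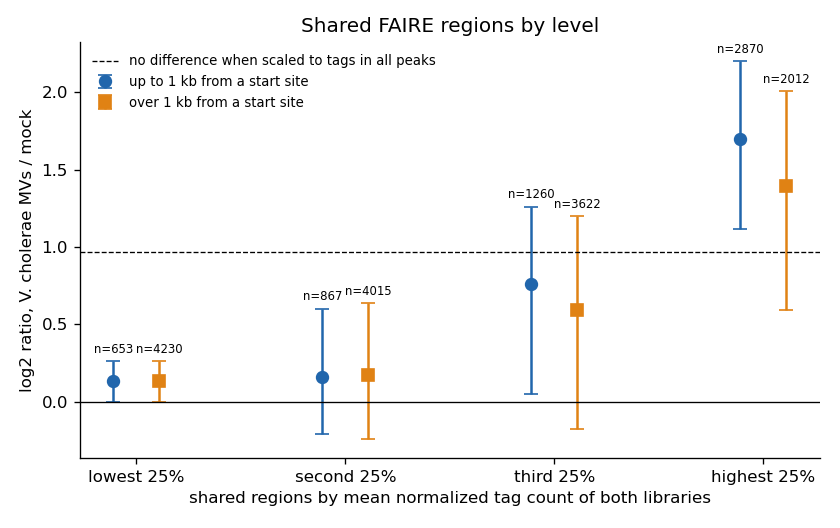
Log2 ratio of the normalized tag count of *V. cholerae* MVs over mock (vertical axis) in shared regions, in 4 equal classes of their mean level (horizontal axis), with circles for regions within 1 kb of a start site and squares for the others. Points are medians and bars the middle 50% of regions. The medians are 0.14 in the lowest class and 1.70 and 1.40 in the highest, and the dashed line at 0.97 marks no difference when scaled to the tags in all peaks.

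H3K4me3, a histone mark of active promoters, was measured in the same treatments, also with 1 library each, and marked the regions open with *V. cholerae* MVs far more often than those of mock only. An H3K4me3 peak of the *V. cholerae* MVs cells overlapped 29.7% of shared regions, 18.7% of regions with *V. cholerae* MVs only and 4.76% of regions in mock only. With the H3K4me3 peaks of mock cells the shares were 22.8%, 13.9% and 2.90%, in the same order. Within 1 kb of start sites the *V. cholerae* MVs peaks of H3K4me3 overlapped 53.9% of the regions with *V. cholerae* MVs only (interval 53.0 to 54.8) and 19.5% of the regions in mock only (18.5 to 20.5). In mock cells H3K4me3 already overlapped 47.7% of the promoter regions that FAIRE listed with *V. cholerae* MVs only. Shared regions with H3K4me3 in both treatments had a median log2 FAIRE ratio of 1.44, and those with H3K4me3 in neither had 0.20. The gap was as large within 1 kb of start sites, at 1.49 in 3330 regions and 0.18 in 1864 regions.

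Over regions of all tag numbers, the GC box and the ETS, CRE and NRF1 motifs were less common in promoter regions listed in mock only than in the other classes, whereas the CCAAT box and the NF-kB motif were not. Within 1 kb of a start site the GC box stood in 44.5% of the windows of shared regions, 40.6% of those with *V. cholerae* MVs only and 19.2% of those in mock only, against 36.3% of all such windows. The ETS motif (CCGGAAG) stood in 8.18%, 8.48% and 2.95%, against 7.06% of all. The CRE motif, bound by CREB and ATF proteins, stood in 1.06%, 1.28% and 0.226%, against 0.970% of all, and the NRF1 motif (GCGCATGCG) in 1.52%, 1.098% and 0.208%, against 0.982%. In regions under 15 tags, which made up 3385 of the 5756 mock-only regions, the classes differed far less. There the GC box stood in 20.6% of the regions with *V. cholerae* MVs only (interval 19.4 to 21.8) and 17.0% of those in mock only (15.8 to 18.4), and the ETS motif in 2.91% (2.43 to 3.45) and 2.69% (2.17 to 3.29). In regions of 30 tags or more the GC box stood in 64.0% (62.5 to 65.4) and 28.2% (21.6 to 35.5), the second over 174 regions. Over all tag numbers the CCAAT box (CCAAT) was about as common in each class, at 28.3%, 28.6% and 27.5%. The NF-kB motif (GGGANTTTC) was likewise as common in each, at 1.03%, 1.07% and 1.08%. Among regions of 30 tags or more the CCAAT box differed. It stood in 33.5% of those with *V. cholerae* MVs only (32.1 to 35.0) and 24.1% of those in mock only (18.0 to 31.2). In shared promoter regions the median log2 ratio was 1.53 in the 60 with a CRE motif and 1.00 in those without. It was 1.5 in the 86 with an NRF1 motif and 0.98 without, and 1.38 in the 2514 with a GC box and 0.62 without. A motif match is a match of letters and not a bound site, and GC content differs between these classes.

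Away from start sites the AP-1 motif was most common in the strong regions that were listed with *V. cholerae* MVs only. Over 1 kb from start sites 10.97% of all windows held the motif. Among regions of 30 tags or more it stood in 26.5% of those with *V. cholerae* MVs only (882 of 3328, interval 25.01 to 28.0), in 16.0% of shared regions (14.7 to 17.4) and in 7.81% of those in mock only (41 of 525, 5.66 to 10.4). In regions with *V. cholerae* MVs only the share was 9.36% under 12 tags, 17.7% at 20 to 29 tags, 27.1% at 30 to 49 tags and 24.9% at 50 tags or more. In mock-only regions it was 8.45%, 10.0%, 8.03% and 3.70% in these classes, the last over 27 regions. Weak regions of both kinds therefore differed little in AP-1 letters. The GC box rose with tags as well, from 9.26% under 12 tags to 24.3% at 50 tags or more with *V. cholerae* MVs only. For mock only these shares were 8.33% and 7.41%. The NF-kB motif stood in 1.55% of shared windows over 1 kb from start sites, 1.29% of those with *V. cholerae* MVs only and 1.18% of those in mock only. In regions of 30 tags or more its shares were 1.41%, 0.96% and 0.57%, in the same order.

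**Figure D3:**
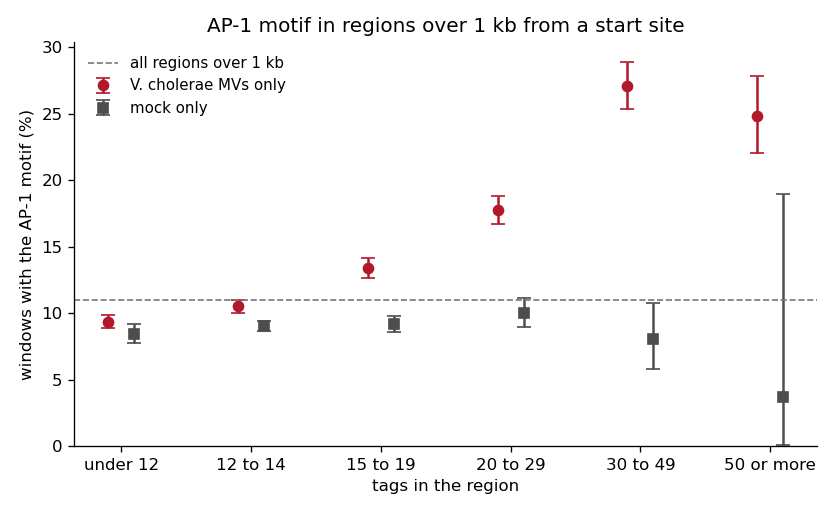
Share of 300 bp windows with the AP-1 motif (vertical axis, percent) by the number of tags in the region (horizontal axis), for regions over 1 kb from a start site listed with *V. cholerae* MVs only (red circles) and in mock only (grey squares). Bars are exact 95% binomial intervals, and the dashed line is the 10.97% of all regions over 1 kb from a start site. The red points go up to 27.1% at 30 to 49 tags, where the grey point is at 8.03%.

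Across genes, the signal of a promoter was summed as the NTC of every peak up to 1 kb from any of its start sites. A promoter peak was listed at 62.4% of 20098 protein-coding genes with *V. cholerae* MVs (12547 genes) and at 41.7% in mock (8388 genes). Both libraries had one at 7091 genes, 5456 genes had one with *V. cholerae* MVs only and 1297 in mock only. The median log2 ratio of genes with both was 1.38 (middle 50% of genes 0.59 to 2.08), 0.53 per kb of called peak and 0.41 when scaled to the tags in all peaks. Of these genes 63.7% were at least 2-fold higher with *V. cholerae* MVs and 2.1% at least 2-fold lower, and in 70.8% the counting interval lay wholly above a ratio of 1 and in 2.81% wholly below. On the scale of tags in peaks, these shares were 39.5% and 13.2%. A higher promoter in this library pair is thus the common case, and the gene lists below are to be read against these shares. The sum of a gene can join different start sites in the 2 libraries, and 10.5% of the *V. cholerae* MVs peaks near start sites lay near those of 2 or more genes.

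The genes that the study examined by realtime PCR or in browser views were mostly higher with *V. cholerae* MVs. *JUN* (chr1:59242517-59249720), the AP-1 subunit, had an NTC of 126.7 with *V. cholerae* MVs and 16.6 in mock, a log2 ratio of 2.93 (interval 2.31 to 3.62). The peak was 2912 bp wide with *V. cholerae* MVs and 500 bp in mock, and the density of 43.5 against 33.2 NTC per kb differed far less. *MAP3K14* (chr17:43340486-43394395), the NF-kB-inducing kinase of the noncanonical pathway, had 101.8 with *V. cholerae* MVs and 8.98 in mock, a log2 ratio of 3.50 (2.68 to 4.45), and its density of 69.6 against 18.0 also stood apart. *LTB*, lymphotoxin beta, had a weak peak of 12.4 with *V. cholerae* MVs and none in mock. *ALDH1A3*, an enzyme of retinoic acid synthesis, had 9.94 with *V. cholerae* MVs and 16.6 in mock, a log2 ratio of -0.74 whose interval of -1.87 to 0.32 includes no change.

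The cell cycle regulators among these genes differed in size of ratio. *CCND1* (chr11:69455924-69469242), cyclin D1, had an NTC of 125.1 with *V. cholerae* MVs and 8.29 in mock, a log2 ratio of 3.91 (3.07 to 4.90). *CDKN1B*, the CDK inhibitor p27, had 99.4 with *V. cholerae* MVs and 11.1 in mock, a log2 ratio of 3.17 (2.41 to 4.02). *CDK6*, a partner of D cyclins, had 66.2 and 35.9, a log2 ratio of 0.88 (0.36 to 1.42), which became -0.08 when scaled to the tags in all peaks. *VDR*, the vitamin D receptor, had 93.6 and 34.5, a log2 ratio of 1.44 (0.95 to 1.95). *KRT80*, an epithelial keratin, had 36.4 and 13.8, a log2 ratio of 1.40 (0.61 to 2.24), but per kb its densities were 28.98 and 27.6.

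Several of the remaining study genes had a peak in a single library. *SOCS2* (chr12:93963590-93977263), a suppressor of cytokine signalling, had an NTC of 104.3 with *V. cholerae* MVs and no mock peak. *RND3*, an atypical small GTPase, had 38.1 and *SKIL*, a repressor of TGF-beta signalling, 37.3 with *V. cholerae* MVs, and neither had a mock peak. *TJP1*, the tight junction scaffold ZO-1, had 12.4 in mock and no peak with *V. cholerae* MVs. The FAIRE library of *E. coli* MVs, which is set against this same mock library, listed 343.5 at *JUN*, 347.3 at *MAP3K14*, 310.6 at *SOCS2* and 100.1 at *TJP1*. That library had 7888670 tags, of which 37.3% lay in peaks, against 13.9% with *V. cholerae* MVs and 7.12% in mock. Values scaled to all tags can therefore not be set directly against those of *V. cholerae* MVs.

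**Figure D4:**
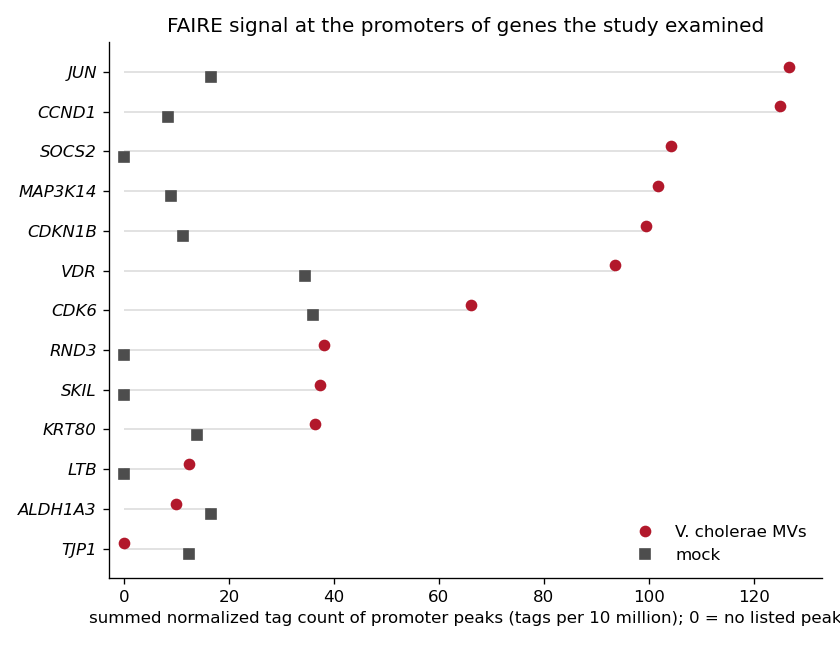
Summed normalized tag count of promoter FAIRE peaks (horizontal axis, NTC) of 13 genes examined by the study, with a red circle for *V. cholerae* MVs above a grey square for mock, 1 library each. The red points reach 126.7 at JUN and the grey points 35.9 at CDK6, and 0 stands for no listed peak.

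Immediate early genes, which are switched on within minutes of many stimuli, were open at most promoters with *V. cholerae* MVs. Of 28 such genes 23 had a peak with *V. cholerae* MVs (82.1%, against 62.4% of all genes) and 13 in mock (46.4%, against 41.7%). Of the 11 with both, 8 were at least 2-fold higher (72.7%, against 63.7% of all genes). Their median log2 ratio was 1.73, against 1.38 over all genes, and 0.62 per kb, against 0.53. *IER2*, a nuclear regulator of early response, had an NTC of 130.0 with *V. cholerae* MVs and 13.8 in mock, and *KLF4*, a zinc finger factor of epithelial differentiation, had 76.9 and 8.29. *IER3*, a stress response gene, had 139.9 and *DUSP6*, an ERK phosphatase, 133.3 with *V. cholerae* MVs, both without a mock peak. *JUNB*, *JUND*, *FOSB*, *FOSL1* and *FOSL2*, all AP-1 subunits, likewise had 78.7 to 117.6 with *V. cholerae* MVs and no mock peak, while *FOS* had a peak in neither. These 6 AP-1 genes were picked after their values were seen. *EGR2* and *ATF3* went without a clear difference, with log2 ratios of -0.10 (-0.69 to 0.48) and 0.35 (-0.26 to 0.97). *DUSP2* and *EGR3* had a peak of 22.8 and 15.2 in mock only.

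In the NF-kB and TNF pathway 30 of 34 genes had a promoter peak with *V. cholerae* MVs and 16 in mock, and none had one in mock only. The shares with a peak were 88.2% and 47.1%, against 62.4% and 41.7% of all genes. Of the 16 genes with both, 13 were at least 2-fold higher (81.25%, against 63.7%) and 1 at least 2-fold lower (6.25%, against 2.10%). Their median log2 ratio was 1.90, against 1.38 over all genes. *BCL3*, a nuclear IkB protein, had an NTC of 75.4 with *V. cholerae* MVs and 8.29 in mock, a log2 ratio of 3.18 (2.31 to 4.19). *MAP3K8*, the kinase TPL2, had 90.3 and *IL23A*, a cytokine subunit, 77.0 with *V. cholerae* MVs and no mock peak. *TNFAIP8*, an apoptosis regulator, had 90.3 and 49.7, a log2 ratio of 0.86, which turned to -0.11 when scaled to the tags in all peaks. *TRAF1*, an adaptor of TNF receptors, had 14.1 with *V. cholerae* MVs and 29.7 in mock, a log2 ratio of -1.08 (-1.98 to -0.24). Its sign turned per kb of called peak, to 0.03, and over overlapping peaks only, to 0.89.

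Sensors of bacterial products and their adaptors had fewer open promoters, 13 of 27 with *V. cholerae* MVs and 8 in mock. The open shares were 48.1% and 29.6%, against 62.4% and 41.7% of all genes. Of the 5 with both, 3 were at least 2-fold higher, a share no larger than the 63.7% of all genes. *TLR5*, the receptor of flagellin, led the list with an NTC of 108.5 with *V. cholerae* MVs and 8.29 in mock. Its log2 ratio was 3.71 (2.86 to 4.699). *MYD88*, the adaptor shared by most Toll-like receptors, had 92.7 and the kinase *IRAK4* 41.4 with *V. cholerae* MVs and no mock peak. *RIPK2*, the kinase downstream of NOD receptors, had 38.1 and 11.7. *NOD2*, a sensor of muramyl dipeptide, had 57.95 and 30.4, a log2 ratio of 0.93, which became -0.04 on the scale of tags in peaks and 0.0016 per kb of called peak. *TLR1*, *TLR2*, *TLR4* and *TLR6* had no peak in either library. *PYCARD* and *NAIP*, of the inflammasomes, had weak peaks of 10.4 and 9.67 in mock only, and *NAIP* lies in a duplicated segment where reads are hard to place.

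Interferon response genes had a lower median log2 ratio, 1.12, with 13 of 18 genes open with *V. cholerae* MVs and 11 in mock. The open shares were 72.2% and 61.1%, against 62.4% and 41.7% of all genes. Of the 11 with both, 7 were at least 2-fold higher (63.6%, against 63.7%) and 1 at least 2-fold lower (9.09%, against 2.10%). On the scale of tags in peaks the balance turned, with 1 gene at least 2-fold higher and 4 at least 2-fold lower. Over all 7091 genes with both, 2044 were at least 2-fold higher on that scale and 757 at least 2-fold lower. *IRF1*, a transcription factor of both interferon and NF-kB responses, had an NTC of 185.6 with *V. cholerae* MVs and no mock peak. *IRF9*, a DNA-binding factor of interferon signalling, had 34 with *V. cholerae* MVs and 7.60 in mock, a log2 ratio of 2.16 (1.17 to 3.27). *IFI27*, an interferon-stimulated gene, had 10.8 with *V. cholerae* MVs and 41.4 in mock, a log2 ratio of -1.95 (-2.93 to -1.06), and stayed negative per kb at -0.11. *IRF7* had 11.6 and 18.7, with an interval of -1.73 to 0.30.

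Genes of intestinal epithelial differentiation were at least 2-fold higher with *V. cholerae* MVs about as often as all genes. The median ratio of the 10 with a peak in both was higher than that of all genes, but about the same per kb of called peak. Of 30 genes 21 had a peak with *V. cholerae* MVs and 13 in mock, against 62.4% and 41.7% of all genes. Of the 10 with both, 6 were at least 2-fold higher and 1 at least 2-fold lower, against 63.7% and 2.10% of all genes. Higher by any amount were 8 of the 10, against 6289 of 7091 over all genes. Their median log2 ratio was 2.33 over a range of -1.26 to 4.13, against 1.38 over all genes. Per kb of called peak the median was 0.55, against 0.53. *KRT8*, a keratin of simple epithelia, had an NTC of 192.9 with *V. cholerae* MVs and 11.1 in mock, a log2 ratio of 4.13 (3.40 to 4.96). *VIL1*, villin of the brush border, had 90.2 and 8.98, a log2 ratio of 3.33 (2.495 to 4.28). The intestinal factor *CDX2* had 173.0 and the crypt factor *KLF5* 95.2 with *V. cholerae* MVs and no mock peak. *HNF4A*, an enterocyte nuclear receptor, had 13.2 with *V. cholerae* MVs and 31.8 in mock, a log2 ratio of -1.26 (-2.18 to -0.41), which turned to 0.32 per kb and to 0.35 over overlapping peaks. *MUC13*, a transmembrane mucin, had 8.29 in mock only.

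Junction genes were open at 19 of 24 promoters with *V. cholerae* MVs and at 16 in mock. The open shares were 79.2% and 66.7%, against 62.4% and 41.7% of all genes. Of the 12 with both, 8 were at least 2-fold higher (66.7%, against 63.7% of all genes). Their median log2 ratio was 1.57, against 1.38 over all genes. *CLDN4*, a claudin, had an NTC of 108.5 with *V. cholerae* MVs and 8.98 in mock, a log2 ratio of 3.59 (2.77 to 4.54). *JUP*, plakoglobin, had 202.8 and 32.5, a log2 ratio of 2.64 (2.19 to 3.13). *TJP3*, the scaffold ZO-3, had 143.2 and *PARD6B*, a polarity protein, 84.5 with *V. cholerae* MVs and no mock peak. On the other side *CTNNB1*, beta-catenin, had 28.3 and *OCLN*, occludin, 26.3 in mock and no peak with *V. cholerae* MVs. With *TJP1* and *NECTIN1*, 4 of the 24 junction genes had a peak in mock only, against 1297 of all 20098 genes. *CGN*, cingulin, had 29.8 and 46.3, a log2 ratio of -0.63 (-1.26 to -0.03), which turned to 0.33 per kb of called peak.

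Cholera toxin acts on the cAMP pathway through *GNAS*. In this pathway and in chloride secretion 22 of 26 genes were open with *V. cholerae* MVs and 14 in mock. The open shares were 84.6% and 53.8%, against 62.4% and 41.7% of all genes. Of the 13 with both, 8 were at least 2-fold higher (61.5%, against 63.7% of all genes). Their median log2 ratio was 1.62, against 1.38 over all genes. *CREB1*, the cAMP-responsive factor, had an NTC of 106.0 with *V. cholerae* MVs and no mock peak, as had *ATP1B1*, a subunit of the sodium pump, with 76.2. *CREM*, a second CRE-binding factor, had 76.2 with *V. cholerae* MVs and 8.98 in mock, a log2 ratio of 3.08 (2.24 to 4.05). *PRKACA*, a catalytic subunit of protein kinase A, had 46.4 and 7.60, a log2 ratio of 2.61 (1.66 to 3.69), while *PRKAR1A*, a regulatory subunit, had 25.6 in mock only. *ADCY7*, an adenylate cyclase, had 62.1 and 41.5, a log2 ratio of 0.58 (0.07 to 1.098), which became -0.38 when scaled to the tags in all peaks. *GNAS* itself had 13.2 and 18.7, a log2 ratio of -0.49 (-1.48 to 0.45), and *CFTR*, the chloride channel, had no peak in either library.

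Promoters of the proteasome differed more in the presence of a peak than in the ratio. Of 14 core genes of the proteasome, which degrades ubiquitinated proteins, 13 had a peak with *V. cholerae* MVs and 3 in mock. The shares with a peak were 92.9% and 21.4%, against 62.4% and 41.7% of all genes. *PSMA5* had an NTC of 68.7 with *V. cholerae* MVs and 13.1 in mock, a log2 ratio of 2.39 (1.66 to 3.19). *PSMB7* had 64.6 and 34.5, a log2 ratio of 0.90, which became -0.06 when scaled to the tags in all peaks. *PSMB1* with 72.0 and *PSMB3* with 63.8 had no mock peak. The median log2 ratio of the 3 genes with both was 0.90, against 1.38 over all genes. At least 2-fold higher was 1 of them (33.3%, against 63.7% of all genes).

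Over all genes in the upper 50% of level, the highest ratio was at *SCAF1* (chr19:50145466-50161899), which encodes a splicing-associated SR protein, with an NTC of 256.7 with *V. cholerae* MVs and 8.29 in mock, a log2 ratio of 4.95 (4.13 to 5.92). *PLEKHH3*, *SLC2A8*, a glucose transporter, *MARK2*, a polarity kinase, and *CARS2*, the mitochondrial cysteinyl-tRNA synthetase, followed with 4.63 to 4.69. The strongest promoters with no mock peak were *ING1*, a chromatin reader and tumour suppressor, with 226.0, *NEMP1*, of the nuclear envelope, with 219.4, *SHC1*, an adaptor of growth factor receptors, with 205.3, *ZC3H4* with 199.5 and *HRC* with 186.3. *ING1* lies head to head with *CARS2*, so their promoter values share peaks.

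Lower promoters rested on several mock peaks per gene, 4 or 5 at each of the 5 lowest genes against 1 or 2 with *V. cholerae* MVs. *DNHD1* had an NTC of 9.11 with *V. cholerae* MVs and 57.4 in mock, a log2 ratio of -2.65 (-3.71 to -1.74), over 500 bp of called peak with *V. cholerae* MVs and 3293 bp in mock. *POU2F2*, a B-cell factor, *CD6*, a surface protein of T cells, *ANXA6*, an annexin, and *EPB41L1* followed with log2 ratios of -2.44, -2.27, -1.99 and -1.79. Per kb of called peak the first 4 of these 5 genes turned positive, at 0.07 to 0.39, and only *EPB41L1* stayed negative, at -0.25. Over overlapping peaks *CD6* turned to 0.76 and *EPB41L1* to 0.41. The strongest promoters listed in mock only were *SYT15*, with 76.7 and the same peaks as its copy *SYT15B*, *KIF3C* with 66.3, *PAX2* with 51.8 and *IGDCC4* with 49.8. *PAX2*, a kidney factor, and the blood genes *POU2F2* and *CD6* are not genes of colon epithelium. Members of the differentiation and junction lists above stood on the mock side as well. *HNF4A* and *CGN* were lower with *V. cholerae* MVs, and *CTNNB1*, *OCLN*, *TJP1* and *MUC13* had a peak in mock only.

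Distances here are to protein-coding start sites, and start sites of noncoding genes were not counted. More than 1 kb from any protein-coding start site, the strongest region without a mock peak lay at chr1:235092774-235097842. It lay outside protein-coding genes, 185372 bp from *TOMM20*, with an NTC of 172.2 with *V. cholerae* MVs. The next lay at chr12:52539897-52543212, 36321 bp from *KRT80*, with 143.2, followed by the RPS9 intron and by chr17:70409015-70410431, 291854 bp from *SOX9*, a crypt factor, both with 129.2. An intronic region of *DOT1L*, the H3K79 methyltransferase, at chr19:2166997-2169735 had 124.2. All 5 overlapped H3K4me3 with *V. cholerae* MVs, and those near *TOMM20*, *KRT80* and *SOX9* did so in mock as well.

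Among shared distal regions the highest ratio was in an intron of *BCL9L*, a coactivator of beta-catenin, at chr11:118787438-118793348, with an NTC of 185.5 with *V. cholerae* MVs and 10.4 in mock, a log2 ratio of 4.16 (3.41 to 5.02). A region outside protein-coding genes at chr20:3791992-3793482, 7689 bp from *AP5S1*, had 115.1 and 7.60, a log2 ratio of 3.92, and 2.66 per kb, without H3K4me3 in either treatment. Regions in introns of *CCDC12* and *SCARA5* and one 1442 bp from *IRF2BP1* had log2 ratios of 3.62 to 3.82. The lowest shared region lay in *DNMT3A*, the DNA methyltransferase, at chr2:25453260-25456247, with 7.45 and 42.8 and a log2 ratio of -2.52 (-3.72 to -1.51), but -0.10 per kb, the mock peak being 2679 bp wide. The other 4 lowest, near *SH3PXD2B*, *LOXL4*, *PSAPL1* and *OR13J1*, had -2.32 to -2.14, and none of the 5 overlapped H3K4me3.

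The strongest distal regions in mock only were weaker. They included an intron of *PMF1* at chr1:156185759-156186259 with an NTC of 45.6, an intron of *SMAD7*, an inhibitor of TGF-beta signalling, at chr18:46470897-46472839 with 43.5, and 2 regions of chromosome 8, near *JPH1* with 43.5 and in *RP1L1* with 41.5. Of these 4 regions 1, that of *SMAD7*, overlapped H3K4me3 with *V. cholerae* MVs and none did so in mock.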

How the data were processed

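FAIRE DNA of HCT8 cells was sequenced from 1 library per treatment. The authors aligned reads to hg19 and called peaks per library against an input with the histone mode of HOMER. HOMER 4.7.2, Bowtie 1.1.2 and SAMtools 1.3.1 stand in the submitters' processing notes, and the paper names Bowtie 2 as the aligner and MACS beside the same HOMER version. Peaks passed 4-fold over input and a Poisson p of 0.0001, per the file headers. Each deposited list gives the normalized tag count, a signal per 10000000 tags, the tag count of the peak, the region size, and the ratio (fold) over the input. The input tags, ratios and p-values over input set only the alternative threshold.

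From these, peaks sharing at least 1 bp were joined into regions, with sums per library. Log2 ratios were taken where both libraries had a peak. Intervals of ratios are exact conditional Poisson 95% intervals on tags, and those of shares are Clopper-Pearson. Start sites are those of 20098 protein-coding genes of GENCODE release 44 on GRCh37. A gene's value sums peaks within 1000 bp of any start site. Ratios count as changed at 2-fold. Of the listed genes, *PECAM1* was not found in the annotation used. H3K4me3 peaks were matched by at least 1 shared bp. Motifs were 14 letter patterns in 300 bp windows. Python 3 scripts used pandas and SciPy. Interval code was tested on simulated tags. Named genes were those the study named, the 2 highest and 2 lowest ratios and the 2 with most tags in a single library of each list, and the 5 of each kind over all genes and distal regions. Members, lists and rules were chosen with earlier results of these data known. Alternatives changed the peak threshold, overlap, window, scaling, minimum tags and per-kb values. Chromosomes other than 1 to 22 and X held 3 peaks with *V. cholerae* MVs and 7 in mock, and they were left out of regions. Printed sequences were chosen outside chromosome 8. Some genes and 1 region that the rule names are not reported here.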

Additional observations from a re-analysis of the deposited data

Results flagged for a closer look

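The mitochondrial genome, which the comparisons above leave out, carried peaks above the level of the mock library. Its 3 peaks with *V. cholerae* MVs summed to a normalized tag count of 4695.6, and its 3 peaks in mock to 838.7. Per kb of called peak the values were 614.8 with *V. cholerae* MVs and 235.9 in mock. The called length was 7.64 kb with *V. cholerae* MVs and 3.56 kb in mock. With 1 library each, the difference was not tested.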

How the results depend on the processing

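No paired analysis was possible because there is only 1 FAIRE library on either side. No replicate could be left out, and depth limits regions near the tag thresholds. Peaks at 8-fold or more over input left 764 shared regions, 10434 with *V. cholerae* MVs only and 7960 in mock only, with median log2 ratios of 0.15 over shared regions, 0.26 up to 1 kb and 0.15 beyond, 2250 genes with a peak with *V. cholerae* MVs and 1023 in mock, a median gene log2 ratio of 0.48, and 98 genes 2-fold higher and 7 lower. Scaling to the tags in all peaks turned the median of shared regions to -0.58 and that over 1 kb to -0.71, and gave 0.032 up to 1 kb and 0.41 over genes, with 2044 genes 2-fold higher and 757 lower, against 4515 and 149 as reported. It also turned proteasome core genes (-0.064), *CDK6* (-0.084), *TNFAIP8* (-0.11), *NOD2* (-0.036), *ADCY7* (-0.38) and *PSMB7* (-0.064). Tags per kb gave 0.24, 0.39 and 0.17 for shared regions, those up to 1 kb and those beyond, and 0.53 over genes, with 1341 genes 2-fold higher and 1 lower, and turned *TRAF1* (0.030), *HNF4A* (0.32), *CGN* (0.33), *DNHD1* (0.065), *POU2F2* (0.19), *CD6* (0.39) and *ANXA6* (0.14). An overlap of 50% gave 0.44 over shared regions and 1.07 up to 1 kb. Windows of 500 bp and 2 kb gave gene medians of 1.42 and 1.32, and the 2 kb window 237 genes 2-fold lower. Overlapping peaks only left 5374 genes with *V. cholerae* MVs and 5288 in mock, a median of 1.18, 2975 genes 2-fold higher and 56 lower, and turned *TRAF1* (0.89), *HNF4A* (0.35), *CD6* (0.76) and *EPB41L1* (0.41). Start sites of all annotated genes gave 0.89 up to 1 kb. At least 20 tags at the shallower depth left 2360 shared regions, 20322 with *V. cholerae* MVs only and 3140 in mock only, 2201 genes with a mock peak, a median of 1.33, 1238 genes 2-fold higher and 7 lower. The causes were not tested, except that stricter peak sets hold fewer peaks.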
